A study of Mus musculus with 4 samples.

Results

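The mRNA of 10 genes of the ATF4 pathway and of the endoplasmic reticulum (ER) stress response was measured in cultured mouse adipose cells: *Atf4*, *Atf3*, *Ddit3*, *Trib3*, *Chac1*, *Sesn2*, *Asns*, *Hspa5*, *Xbp1* and *Herpud1*. They were taken by symbol from the 32285 genes of the count matrices, and all 10 were found in each of the 4 single-cell RNA sequencing libraries. *Ddit3* stands on 2 rows of the gene table, so that the 10 symbols cover 11 rows, and its second row held 0 counts in each library. Cells were barcodes with 5000 to 75000 unique molecular identifiers (UMIs, the tags that count captured mRNA molecules), 200 to 7500 genes and under 10% mitochondrial UMIs, which gave 28262 cells.

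All libraries came from primary cells of chow-fed C57BL/6J male mice, whose age and number per library are not given in the sources used here. De-differentiated fat (DFAT) cells make up the iWAT_DFAT and eWAT_DFAT libraries, which arise when floating mature adipocytes of the inguinal (iWAT) or epididymal (eWAT) white fat depot settle on the ceiling of an air-free flask and turn into fibroblast-like cells. The iWAT_SVF and eWAT_SVF libraries hold cultured cells of the stromal vascular fraction (SVF) of these depots, which the study calls adipose stem and progenitor cells (ASPCs). SVF cells were grown in dishes and DFAT cells came from ceiling culture, so that cell kind and culture cannot be told apart. Each condition is 1 library, so there are no replicates of a condition, and no test across samples was run.

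The integrated stress response begins when kinases that sense amino acid shortage, ER stress, double-stranded RNA or haem deficiency phosphorylate the translation factor eIF2α. Bulk protein synthesis then slows, while the mRNA of the transcription factor ATF4 is translated more efficiently, and ATF4 switches on genes of amino acid synthesis, amino acid uptake and tRNA charging together with regulators of cell survival. The unfolded protein response has further arms, IRE1 with its substrate *Xbp1* and ATF6, which raise ER chaperones and the machinery that removes misfolded proteins from the ER. Because ATF4 is controlled at translation, its mRNA level does not give its protein level.

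The labels were set against marker genes. At least 3 of 11 ASPC markers had a UMI in 99.5% of iWAT_DFAT, 94.5% of eWAT_DFAT, 97.9% of iWAT_SVF and 97.8% of eWAT_SVF cells. Their summed level set eWAT_DFAT apart, with 2035 CPM (UMIs per 1000000 UMIs of all cells of a library). It was 6463 CPM in iWAT_DFAT, 5962 CPM in iWAT_SVF and 5664 CPM in eWAT_SVF. In eWAT_DFAT 7 of the 11 markers were lower by 2-fold than in eWAT_SVF cells, beside 6.67% of all genes. In iWAT_DFAT 5 were higher and 1 lower by 2-fold than in iWAT_SVF cells, beside 9.91% and 5.18% of all genes. The part of the low marker level of eWAT_DFAT in the results on that library was not tested. The summed level of 8 adipocyte markers was 32.4 CPM in iWAT_DFAT and 114 CPM in eWAT_DFAT cells, against 2.40 and 4.10 CPM in the iWAT_SVF and eWAT_SVF cells, and *Lep* had 0 UMIs in each library. Cells with 3 or more markers of endothelial, mesothelial, pericyte, Schwann, macrophage or adipocyte type made up 1.56%, 8.60%, 5.44% and 12.2% of the iWAT_DFAT, eWAT_DFAT, iWAT_SVF and eWAT_SVF cells. Some of these cells in each library also had 3 or more ASPC markers, so that the ASPC shares do not exclude other cell types. The libraries held 6464 to 7629 cells with 183664704 to 199357348 UMIs, and median UMIs per cell ran from 22111 to 27617. Of all cells, 97 barcodes occurred in 2 or more libraries.

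Promoters of several of the 10 genes hold the letters of the elements through which these pathways are known to act. They were searched in RefSeq promoter windows of GRCm38.p6, from 250 bases before to 50 bases after the start of transcription, on both strands, and all 10 genes had 1 window. The C/EBP-ATF response element (CARE, the letters TGATGNAA) was present in 5 of the 10 windows, those of *Atf3*, *Chac1*, *Asns*, *Herpud1* and *Trib3*, and in 3.97% of all 32851 windows. In *Trib3* the match began 14 bases after the start, and the other 4 lay before it. The ER stress response element (ERSE: CCAAT, 9 bases, then CCACG) was found in *Hspa5* and in 0.119% of all windows, and ERSE-II (ATTGG, 1 base, then CCACG) in *Herpud1* and in 0.0365%. The unfolded protein response element of XBP1 (TGACGTGG, 0.676% of windows) and the full cyclic AMP response element (TGACGTCA, 1.79%) were in none of the 10 windows. The stretches below show the matches before the start with up to 30 bases on each side, 5′ to 3′ on the strand of the gene, with the match in capitals. They are shown so that the letters can be set beside the levels that follow. Of the 5 genes with CARE, *Trib3*, *Chac1*, *Asns* and *Herpud1* were lower and *Atf3* higher in iWAT_DFAT than in iWAT_SVF cells, and among the 5 genes with no CARE *Ddit3*, *Atf4* and *Sesn2* were lower too. The *Atf3* stretch, at chr1:191183406-191183473 on the minus strand, holds CARE on its other strand, from 110 bases before the start.
Atf3: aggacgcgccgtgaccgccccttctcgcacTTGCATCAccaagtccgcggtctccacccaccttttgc
The *Chac1* stretch lies at chr2:119351019-119351086 on the plus strand, with its match on the other strand from 193 bases before the start.
Chac1: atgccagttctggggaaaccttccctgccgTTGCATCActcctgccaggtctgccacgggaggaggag
The *Asns* stretch lies at chr6:7693210-7693262 on the minus strand, and its match begins 23 bases before the start.
Asns: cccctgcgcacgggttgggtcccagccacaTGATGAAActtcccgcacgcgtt
The *Hspa5* stretch lies at chr2:34771995-34772073 on the plus strand, and its ERSE begins 65 bases before the start.
Hspa5: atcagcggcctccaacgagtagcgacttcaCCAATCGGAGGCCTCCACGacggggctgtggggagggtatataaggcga
*Herpud1* has both kinds of element, a CARE on its other strand from 112 bases before the start, in the stretch chr8:94386287-94386354, and an ERSE-II on its own strand from 52 bases before it, in chr8:94386347-94386417. Both stretches are printed on the plus strand.
Herpud1_CARE: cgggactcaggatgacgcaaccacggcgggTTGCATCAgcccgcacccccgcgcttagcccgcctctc
Herpud1_ERSE-II: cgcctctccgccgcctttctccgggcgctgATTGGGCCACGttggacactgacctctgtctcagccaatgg
A match is a description of the sequence and does not show that a factor binds there.

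Levels of the transcription factors came first. *Atf4* (chr15:80255184-80257541 on mm10), the central factor of the integrated stress response, was at 126 CPM in iWAT_DFAT, 130 CPM in eWAT_DFAT, 205 CPM in iWAT_SVF and 158 CPM in eWAT_SVF cells. Both SVF libraries were thus above both DFAT libraries, and the highest level was 1.63 times the lowest. *Ddit3* (chr10:127290774-127296288), which encodes the pro-apoptotic factor CHOP, was at 21.3 CPM in iWAT_DFAT, 28.0 CPM in eWAT_DFAT, 82.9 CPM in iWAT_SVF and 62.9 CPM in eWAT_SVF cells, in the same order of libraries as *Atf4* but over a 3.90-fold range. *Atf3* (chr1:191170296-191218039), a factor induced by many stresses and by growth signals, went the other way: it was at 22.9 CPM in iWAT_DFAT, 8.84 CPM in eWAT_DFAT, 6.16 CPM in iWAT_SVF and 5.91 CPM in eWAT_SVF cells. The 2 SVF libraries did not differ in *Atf3* beyond their counting intervals. *Xbp1* (chr11:5520659-5525893), whose mRNA is spliced by IRE1, was at 90.0 CPM in iWAT_DFAT, 66.4 CPM in eWAT_DFAT, 78.5 CPM in iWAT_SVF and 91.5 CPM in eWAT_SVF cells. It followed neither cell kind nor depot, and the counting intervals of its 2 highest libraries, eWAT_SVF and iWAT_DFAT, overlapped. These counts do not separate spliced from unspliced *Xbp1*.

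Feedback and effector genes included the pair with the widest ranges, *Trib3* and *Chac1*. *Trib3* (chr2:152337422-152344032), a pseudokinase induced by ATF4 and CHOP that restrains ATF4, was at 5.25 CPM in iWAT_DFAT, 3.87 CPM in eWAT_DFAT, 37.0 CPM in iWAT_SVF and 29.6 CPM in eWAT_SVF cells. Its 9.57-fold range was the widest of the 10 genes. *Chac1* (chr2:119351229-119354381), an enzyme that degrades glutathione, was at 3.75 CPM in iWAT_DFAT, 3.53 CPM in eWAT_DFAT, 18.1 CPM in iWAT_SVF and 16.6 CPM in eWAT_SVF cells, and its 2 DFAT libraries could not be ordered within counting error. *Sesn2* (chr4:132492032-132510501), a leucine sensor that inhibits mTORC1, spanned a smaller range, with 16.6 CPM in iWAT_DFAT, 11.8 CPM in eWAT_DFAT, 23.9 CPM in iWAT_SVF and 17.8 CPM in eWAT_SVF cells. Within each depot it was lower in DFAT than in SVF cells, with separate intervals. Across depots the intervals of eWAT_SVF and iWAT_DFAT overlapped, unlike those of *Trib3* and *Chac1*.

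*Asns* (chr6:7675169-7693254), the enzyme that makes asparagine, was at 64.5 CPM in iWAT_DFAT, 79.0 CPM in eWAT_DFAT, 182 CPM in iWAT_SVF and 232 CPM in eWAT_SVF cells. It was higher in the eWAT than in the iWAT library of either kind, whereas *Trib3* was lower there in both kinds. *Ddit3* was higher in eWAT among DFAT cells and lower among SVF cells. *Hspa5* (chr2:34771970-34777547), which encodes the ER chaperone BiP, was at 992 CPM in iWAT_DFAT, 759 CPM in eWAT_DFAT, 797 CPM in iWAT_SVF and 722 CPM in eWAT_SVF cells, a range of 1.37-fold. *Herpud1* (chr8:94386438-94395377), a membrane protein of ER-associated degradation, was at 44.0 CPM in iWAT_DFAT, 33.7 CPM in eWAT_DFAT, 76.4 CPM in iWAT_SVF and 83.0 CPM in eWAT_SVF cells. *Herpud1* thus followed cell kind like the ATF4 targets, whereas *Hspa5* differed little. Between neighbouring levels not named here as overlapping, the exact 95% Poisson intervals were separate, and all intervals in this text cover counting error only, not the difference between cultures.

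**Figure D1:**
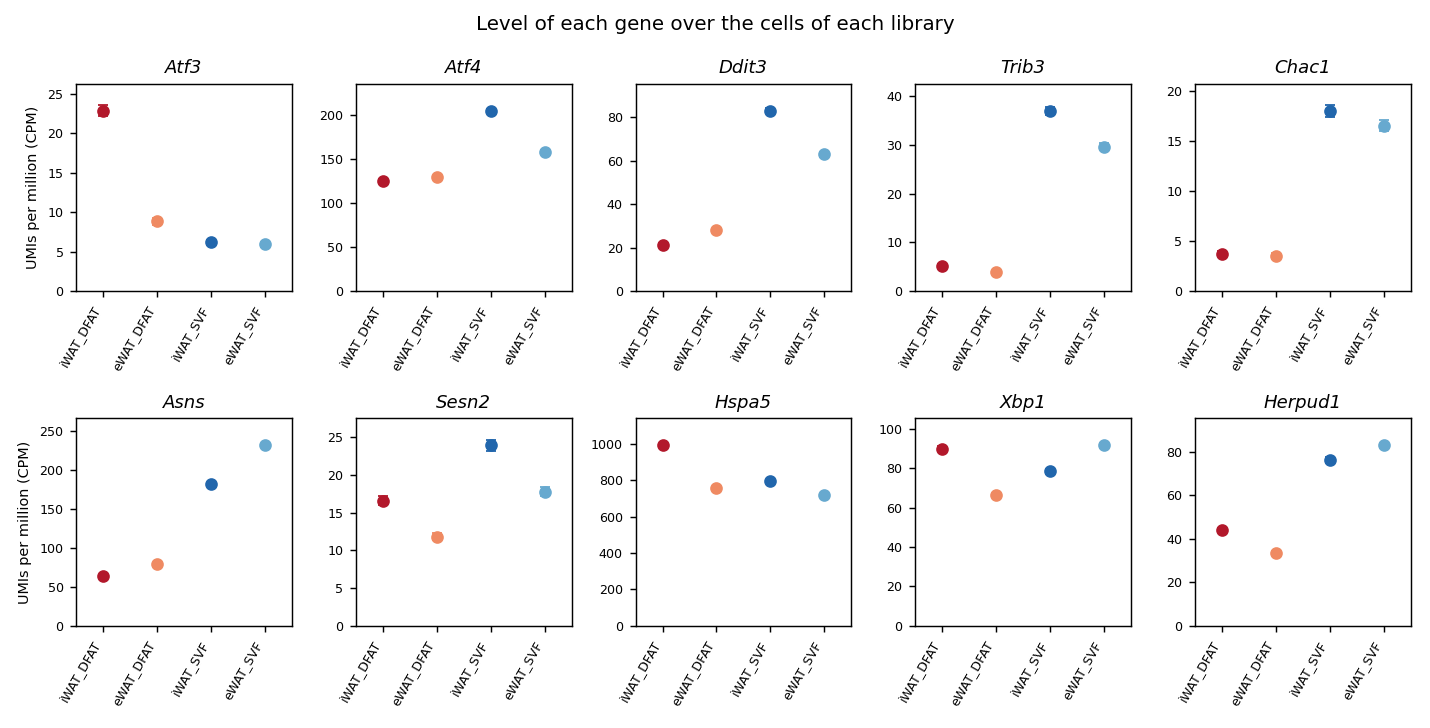
Level of each of the 10 genes (y axis, UMIs per 1000000 UMIs, from 0) in the 4 libraries (x axis), as points with exact 95% Poisson intervals. *Trib3*, *Chac1*, *Ddit3*, *Asns*, *Herpud1* and *Atf4* are lower in both DFAT libraries than in both SVF libraries, *Atf3* is highest in iWAT_DFAT at 22.9, and *Hspa5* spans only 722 to 992.

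In the inguinal depot, the question was how DFAT cells differ from SVF cells of the same tissue. A fixed size of 2-fold, among genes at 5 CPM or more in the higher library, stood in for a test. *Trib3*, *Chac1*, *Ddit3* and *Asns* were lower by more than 2-fold in iWAT_DFAT, 4 of 10 genes, where 5.18% of all 10426 genes were as much lower. *Atf3* was higher by more than 2-fold, 1 of 10 genes, near the 9.91% of all genes that were as much higher. The log2 ratio of iWAT_DFAT to iWAT_SVF was -2.82 (95% interval -2.92 to -2.72) for *Trib3*, a 7.05-fold difference. It was -2.27 (-2.39 to -2.15) for *Chac1*, -1.96 (-2.01 to -1.91) for *Ddit3* and -1.49 (-1.52 to -1.46) for *Asns*. *Atf3* had a log2 ratio of 1.89 (1.80 to 1.98), which is 3.71-fold higher. Among the genes short of 2-fold, *Herpud1* stood at -0.79, *Atf4* at -0.71 and *Sesn2* at -0.53, while *Hspa5* at 0.32 and *Xbp1* at 0.20 lay above 0. The median over the 10 genes was -0.75, beside 0.09 over all genes.

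In the epididymal depot, *Trib3*, *Chac1*, *Asns*, *Herpud1* and *Ddit3* were lower by more than 2-fold in eWAT_DFAT than in eWAT_SVF cells, 5 of 10 genes beside 6.67% of all 10298 genes. None of the 10 was higher by 2-fold, beside 6.44% of all genes. The log2 ratio was -2.94 (-3.05 to -2.82) for *Trib3*, or 7.66-fold, -2.23 (-2.35 to -2.11) for *Chac1* and -1.55 (-1.58 to -1.53) for *Asns*. These 3 values lie close to those of the inguinal depot. *Herpud1* followed at -1.30 (-1.34 to -1.26) and *Ddit3* at -1.17 (-1.22 to -1.12). *Atf3* was at 0.58 (0.47 to 0.69), *Hspa5* at 0.07, *Atf4* at -0.29, *Xbp1* at -0.46 and *Sesn2* at -0.59. Over the 10 genes the median was -0.88, beside 0.07 over all genes.

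Between the depots fewer of the 10 genes passed 2-fold. Among DFAT cells, *Atf3* alone of the 9 genes at 5 CPM or more passed 2-fold, with a log2 ratio of iWAT to eWAT of 1.37 (1.29 to 1.45), where 8.29% of all 10384 genes were as much higher. With the mean of single cells, in which each cell has equal weight, the ratio was 0.96 and short of 2-fold. None of the 9 was lower by 2-fold, beside 3.95% of all genes. *Sesn2* (0.49), *Trib3* (0.44), *Xbp1* (0.44), *Herpud1* (0.39) and *Hspa5* (0.39) were above 0, *Ddit3* (-0.39) and *Asns* (-0.29) below it, and *Atf4* was at -0.05. *Chac1*, under 5 CPM in both libraries, had a ratio whose interval held 0, from -0.07 to 0.24. Among SVF cells none of the 10 genes passed 2-fold either way, beside 2.94% of all 10135 genes higher and 3.94% lower in iWAT. The log2 ratio of iWAT to eWAT was between 0.32 and 0.43 for *Sesn2*, *Ddit3*, *Atf4* and *Trib3*, and -0.35 for *Asns*. *Atf3* there had an interval that held 0, from -0.06 to 0.18. Each library enters 2 of these 4 comparisons, so that they are not independent of each other.

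**Figure D2:**
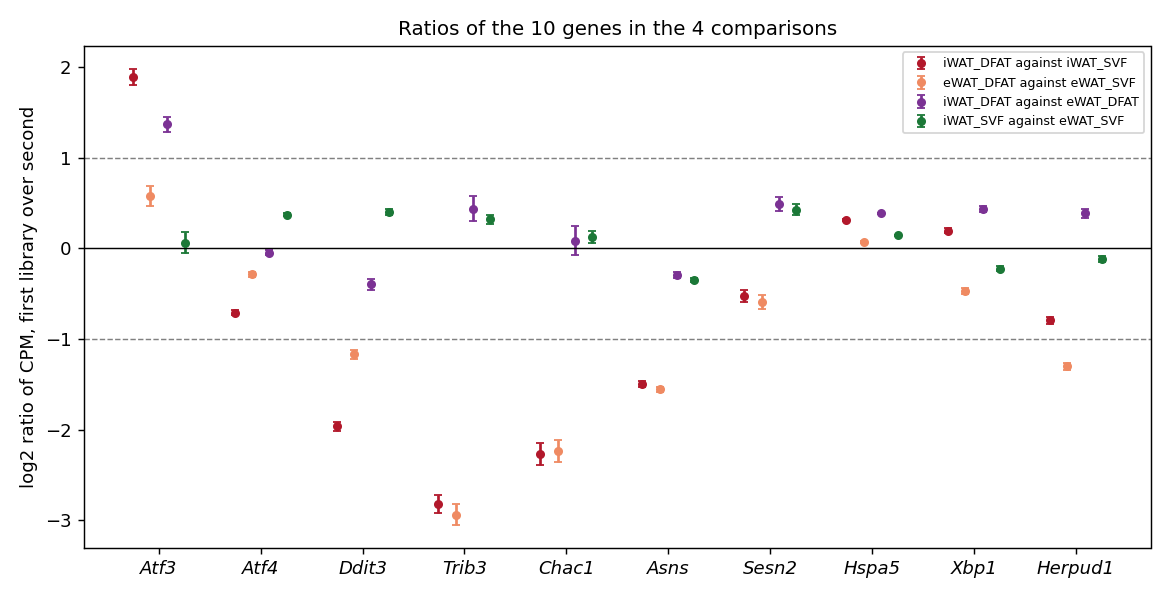
Log2 ratio of CPM (y axis) of each gene (x axis) in the 4 comparisons (colours), with exact conditional 95% intervals; the dashed lines mark 2-fold. *Trib3* (-2.82 and -2.94) and *Chac1* (-2.27 and -2.23) lie far below 0 in both comparisons of DFAT with SVF cells, and *Atf3* lies above the upper line where iWAT_DFAT is set against iWAT_SVF or eWAT_DFAT.

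Other targets of ATF4 were followed in 4 lists of 46 genes in all, of which 44 reached 5 CPM. In the inguinal depot 13 of the 44 were lower and 3 higher by 2-fold in DFAT cells, and in the epididymal depot 12 were lower and 1 higher, with medians of -0.69 and -0.58. Of all genes, 5.18% were as much lower and 9.91% higher in the inguinal depot, and 6.67% lower and 6.44% higher in the epididymal depot, so that the few higher targets lie below the share of all genes. Genes of amino acid and one-carbon synthesis stood lowest: 8 of 12 were lower by 2-fold in iWAT_DFAT, with a median log2 ratio of -1.14, and 7 of 12 in eWAT_DFAT, with a median of -1.32. *Phgdh*, the first enzyme of serine synthesis, was at 59.6 CPM in iWAT_DFAT and 278 CPM in iWAT_SVF, and at 106 CPM in eWAT_DFAT and 336 CPM in eWAT_SVF cells. *Cth*, which makes cysteine from cystathionine, was at 3.05 CPM in iWAT_DFAT against 15.1 CPM in iWAT_SVF and at 3.49 CPM in eWAT_DFAT against 16.4 CPM in eWAT_SVF cells. *Pck2*, the mitochondrial form of a gluconeogenic enzyme, was at 23.6 CPM in eWAT_DFAT and 94.6 CPM in eWAT_SVF cells. The exception was *Mthfd1l*, a mitochondrial folate enzyme, with log2 ratios of 0.29 and 0.53. *Asns* among the 10 genes therefore stood with most of this list.

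The list of tRNA charging genes holds 12 aminoacyl-tRNA synthetases and *Xpot*, which exports tRNA from the nucleus. All 13 had ratios below 0 in both depots, where 42.4% and 43.9% of all genes were below 0, with medians of -0.49 and -0.40, but only *Sars*, the seryl-tRNA synthetase, passed 2-fold, at 96.4 CPM in iWAT_DFAT against 229 CPM in iWAT_SVF cells. In the epididymal depot the lowest ratio was that of *Aars*, at -0.88. Among 9 amino acid transporters, 8 of them at 5 CPM, the median was -0.53 in the inguinal and -0.58 in the epididymal depot. *Slc1a4*, which carries alanine and serine, was the only one lower by 2-fold in either depot, with log2 ratios of -1.85 and -1.30. *Slc7a11*, the cystine importer, which is also a target of the oxidative stress factor NRF2, was opposite: it was at 160 CPM in iWAT_DFAT and 253 CPM in eWAT_DFAT, against 18.8 CPM in iWAT_SVF and 16.3 CPM in eWAT_SVF cells. The list of uptake genes was therefore not uniform.

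Among the stress regulators, *Atf5*, a factor translated under the same control as ATF4, was at 92.0 CPM in iWAT_DFAT and 104 CPM in eWAT_DFAT, against 324 CPM in iWAT_SVF and 319 CPM in eWAT_SVF cells. *Eif4ebp1*, a repressor of translation, had a log2 ratio of -1.11 in the inguinal depot, and *Vldlr*, a lipoprotein receptor, one of -2.06 in the epididymal depot. *Cebpb*, a factor of early adipogenesis, and *Ddit4*, an inhibitor of mTORC1, were higher by 2-fold in iWAT_DFAT than in iWAT_SVF cells, with log2 ratios of 2.01 and 1.31. In all, 3 of 11 measured regulators were lower and 2 higher in the inguinal depot, and 4 of 11 were lower and none higher in the epididymal depot, beside 5.18% and 9.91% of all genes in the inguinal and 6.67% and 6.44% in the epididymal depot.

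ER genes differed little. Of 17 measured ER chaperones and folding enzymes and 15 measured genes of ER-associated degradation and translocation, none differed by 2-fold between DFAT and SVF cells in either depot, beside those same shares of all genes. The chaperones had medians of 0.07 and 0.02. For degradation and translocation the medians were 0.19 and -0.16. *Ero1l*, an oxidase of the ER that is induced by CHOP, had the lowest ratio of the chaperone list in both depots (-0.82 and -0.75), while *Pdia3*, a disulfide isomerase, was at 0.42 and 0.40. *Edem1*, which hands misfolded glycoproteins to degradation and is a target of XBP1, was at -0.48 and -0.81. Among 14 sensors and eIF2 regulators only *Ern1*, which encodes IRE1, passed 2-fold, at 31.3 CPM in iWAT_DFAT against 15.3 CPM in iWAT_SVF and 33.0 CPM in eWAT_DFAT against 14.5 CPM in eWAT_SVF cells. A single gene of 14 is near the 9.91% and 6.44% of all genes that were as much higher. *Hspa5*, at 0.32 and 0.07, thus lay within the range of the chaperone list, though above its median in the inguinal depot. *Herpud1* lay below each measured gene of the degradation list.

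**Figure D3:**
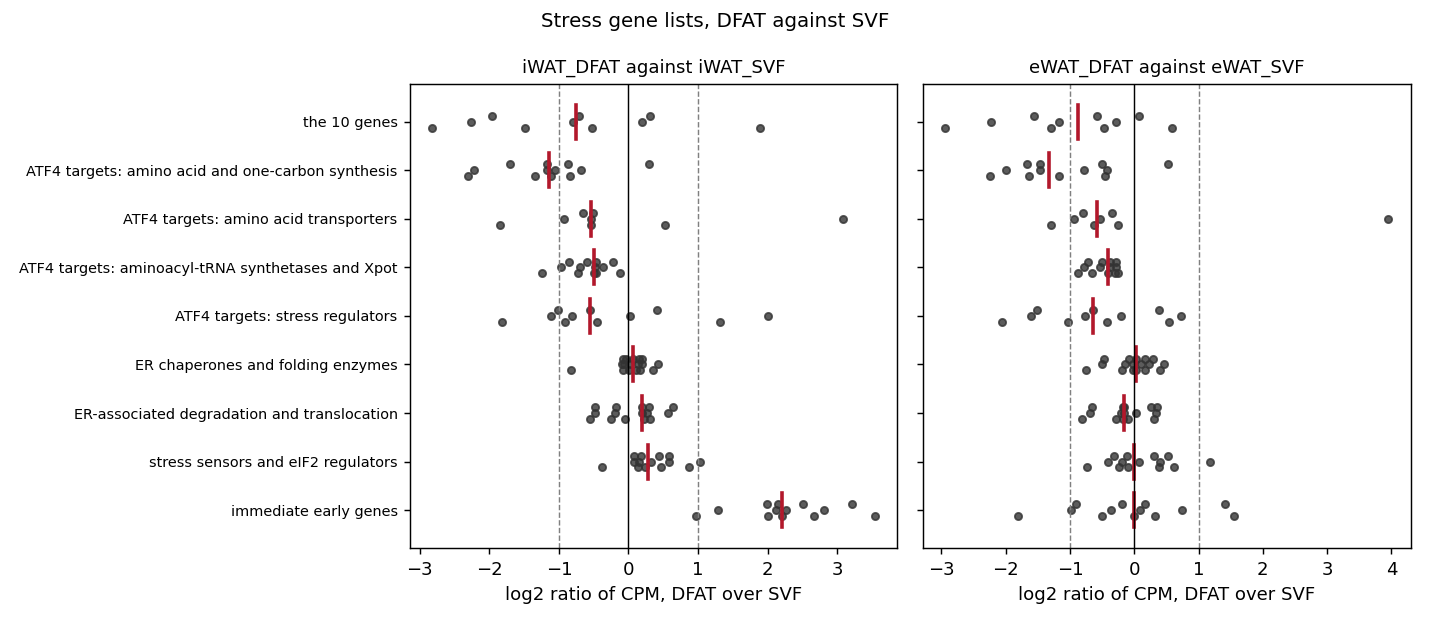
Log2 ratio of CPM, DFAT over SVF (x axis), of each gene at 5 CPM or more in the gene lists (y axis), inguinal depot on the left and epididymal depot on the right; the points are genes, the red bars medians and the dashed lines 2-fold. Amino acid and one-carbon synthesis lies lowest (medians -1.14 and -1.32), the 12 aminoacyl-tRNA synthetases and *Xpot* are all below 0, and the ER chaperones centre near 0 (0.07 and 0.02).

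Between the depots, the ATF4 target lists centred near 0. Over the 42 targets measured in DFAT cells the median log2 ratio of iWAT to eWAT was -0.03, with 2 genes higher and 1 lower by 2-fold, beside 8.29% and 3.95% of all genes. The higher ones were *Slc38a2*, a transporter of small neutral amino acids, and *Ddit4*, both at 1.01 and just past 2-fold. With median-of-ratios scaling, which shifts these ratios by -0.02, both fall short of it. The lower one was *Slc7a5*, a transporter of large neutral amino acids, at -1.12. In the sensor list *Ppp1r15b*, which helps to dephosphorylate eIF2α, was higher at 1.20, and *Crebrf* stood just at the 2-fold limit, at 17.2 CPM in iWAT_DFAT and 8.62 CPM in eWAT_DFAT. In SVF cells, 2 of 44 targets were lower by 2-fold in iWAT, *Slc7a5* at -1.52 and *Cebpb* at -1.03, and none was higher. This is near the 3.94% of all genes that were as much lower.

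Genes with CARE in their window were compared with the other genes that had a window and reached 5 CPM. Those with CARE include *Trib3*, *Chac1*, *Asns*, *Herpud1* and *Atf3* of the 10 genes, so that the shares are not separate from the ratios given above. In the inguinal comparison, 9.78% of 225 genes with CARE were lower by 2-fold in DFAT cells, against 4.35% of genes without it, and 13.3% against 9.29% were higher. In the epididymal comparison, 11.7% of 222 genes with CARE were lower, against 5.97% without it, and 9.01% against 6.11% were higher. The shares with CARE were the larger ones in both directions, and no test was made of them.

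The spread over cells was read after each cell had been thinned to 5000 UMIs, which removes differences in depth. *Trib3* then had a UMI in 2.41% of iWAT_DFAT and 1.87% of eWAT_DFAT cells, against 15.5% of iWAT_SVF and 12.2% of eWAT_SVF cells. *Asns* was detected in 25.0% of iWAT_DFAT, 29.3% of eWAT_DFAT, 55.3% of iWAT_SVF and 61.4% of eWAT_SVF cells. *Hspa5* had a UMI in 89.7% to 96.2% of cells in every library, so that its level was not carried by a few cells. *Atf3* was found in 10.1% of iWAT_DFAT, 3.91% of eWAT_DFAT, 2.98% of iWAT_SVF and 2.61% of eWAT_SVF cells. At full depth the shares for *Trib3* were 8.51%, 7.69%, 48.0% and 43.6% in the order iWAT_DFAT, eWAT_DFAT, iWAT_SVF and eWAT_SVF. These shares order the libraries as the CPM values do. No cell type present here is known to lack these genes, so that no share of background from free RNA could be read. In droplets with 1 to 100 UMIs, which hold free RNA, *Trib3* was at 3.86, 4.32, 40.9 and 29.9 CPM in the same order, close to its level in the cells of each library.

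*Ddit3*, *Trib3* and *Chac1* are commonly read as end points of a strong stress response. With each cell thinned to 5000 UMIs, none of the 3 was detected in 87.1% of iWAT_DFAT and 86.2% of eWAT_DFAT cells, against 56.0% of iWAT_SVF and 64.1% of eWAT_SVF cells. Exactly 2 of them were found in 0.786%, 0.851%, 8.11% and 5.90% of the iWAT_DFAT, eWAT_DFAT, iWAT_SVF and eWAT_SVF cells, and all 3 in 0.105%, 0.0928%, 0.768% and 0.519%. At full depth all 3 were found in 1.47% of iWAT_DFAT, 1.90% of eWAT_DFAT, 17.7% of iWAT_SVF and 15.8% of eWAT_SVF cells, and none of them in 59.4%, 50.4%, 17.8% and 21.3%. The shares thus depend strongly on depth, and both SVF libraries had the larger share of cells with all 3 at either depth.

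Summed over the 46 ATF4 targets, a cell of the iWAT_DFAT library held a median of 17 target UMIs per 5000 (5th to 95th percentile 9 to 32), and one of eWAT_DFAT 17 (8 to 32). SVF cells held a median of 24 (11 to 38) in iWAT and 25 (11 to 40) in eWAT. The distributions overlap widely, and each has a single broad peak. Genes at high levels weigh most in these sums. In the inguinal depot, where 13 targets were lower and 3 higher by 2-fold, *Cebpb* was at 710 CPM in iWAT_DFAT against 176 CPM in iWAT_SVF cells. The part of the higher targets in the overlap was not tested. The 34 ER genes had medians of 49 and 46 in the iWAT_DFAT and eWAT_DFAT cells and of 47 and 43 in the iWAT_SVF and eWAT_SVF cells.

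**Figure D4:**
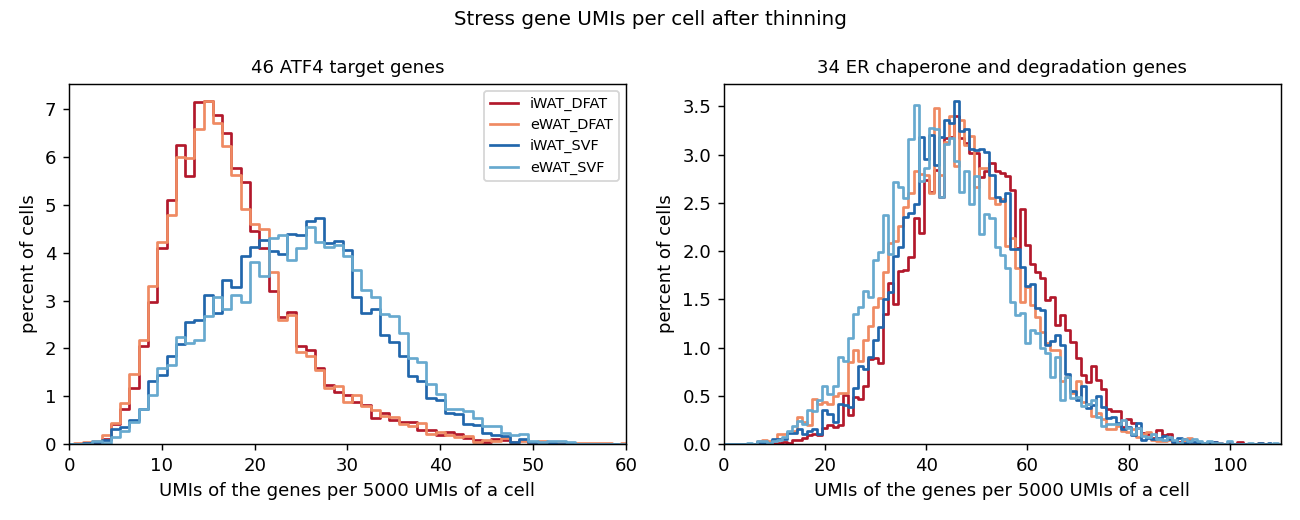
Percent of cells (y axis) by the number of UMIs of 46 ATF4 targets (left) and of 34 ER chaperone and degradation genes (right) per 5000 UMIs of a cell (x axis), 1 line per library. The distributions of the targets overlap, with lower medians in the DFAT libraries (17 and 17) than in the SVF libraries (24 and 25), while the ER genes overlap (medians 43 to 49).

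Detection of the effector genes in the same cells was compared within each library. In thinned iWAT_DFAT cells *Chac1* had a UMI in 10.3% of the 184 cells with *Trib3* (19 cells) and in 1.57% of the cells without it, a ratio of 6.57. In eWAT_DFAT cells the shares were 9.92% (12 of 121 cells) and 1.43%, a ratio of 6.91. In SVF cells the ratio was 1.69 for iWAT (12.4% and 7.37%) and 1.57 for eWAT (10.4% and 6.62%). *Asns* was detected in 64.1% of iWAT_DFAT cells with *Trib3* and in 24.0% without it, and in 65.1% and 53.4% of iWAT_SVF cells. In the epididymal libraries these shares were 53.7% and 28.9% of eWAT_DFAT and 75.2% and 59.5% of eWAT_SVF cells. In the inguinal depot the few DFAT cells with *Trib3* thus had a share with *Asns* near that of the SVF cells with *Trib3*, and in the epididymal depot a lower one. *Hspa5* did not share this pattern, with ratios of 0.988 to 1.04 in the 4 libraries, though it is near full detection, which bounds the ratio. A gene that is found in few cells leaves more room for a high ratio than one that is found in many, so that the ratios of DFAT and SVF cells are not on an equal footing.

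The genes most like each member over cells were ranked by the lowest of 4 within-library Pearson correlations of thinned log counts among 8984 genes, as a description. *Hspa5* was most like *Hsp90b1*, *Calr* and *Manf*, other chaperones and a stress-induced secreted factor of the ER, with lowest correlations of 0.30, 0.28 and 0.26. *Asns* was most like *Phgdh* at 0.17, and then *Col1a1* and *Psph*. For *Trib3* the nearest were *Psph*, *Asns* and *Nupr1*, at or just above 0.09, and for *Chac1* they were *Eif4ebp1*, *Asns* and *Sparc*, at most 0.07. The nearest of *Atf3* were *Cdh13*, *Jun* and *Fos*, and that of *Xbp1* was *Hspa5*. *Atf4*, *Ddit3*, *Sesn2* and *Herpud1* had lowest correlations of at most 0.10, mostly with collagen genes, *Sparc* and *Serpinh1*. All points share a library and its depth, and values this weak in sparse counts are not a finding.

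*Atf3* was high in cells with markers of some other types, but not of all. Cells with 3 or more markers of another type held 28.6% of the *Atf3* UMIs of eWAT_DFAT, 32.6% of those of iWAT_SVF and 31.4% of those of eWAT_SVF, and 3.86% of those of iWAT_DFAT, beside 6.90%, 5.01%, 10.96% and 1.55% of all UMIs of these libraries. Cells with under 3 markers of each of these types are called cells with none. In eWAT_DFAT, *Atf3* was at 121 CPM in 159 cells with endothelial markers and at 6.78 CPM in 5908 cells with none. In iWAT_DFAT it was at 102 CPM in 26 cells with endothelial markers and 127 CPM in 17 cells with Schwann cell markers, against 22.3 CPM in cells with none. In iWAT_SVF it was at 129 CPM in 148 cells with Schwann cell markers and at 4.37 CPM in cells with none. Without all such cells the log2 ratio of *Atf3* was 2.35 between iWAT_DFAT and iWAT_SVF, 1.72 between iWAT_DFAT and eWAT_DFAT and 0.58 between eWAT_DFAT and eWAT_SVF, beside 1.89, 1.37 and 0.58 over all cells. Cells with 2 markers lie near this limit, and there were 134 of them for the endothelial list in iWAT_DFAT and 138 in eWAT_DFAT. They count as cells with none unless another list reaches 3. In 181 iWAT_SVF cells with pericyte markers *Atf3* was at 4.86 CPM, with an interval that overlapped that of cells with none. The intervals also overlapped in eWAT_SVF, with *Atf3* at 7.54 CPM in 80 cells with pericyte markers. In the DFAT libraries *Atf3* was higher in cells with pericyte markers than in cells with none. It was at 33.9 CPM in 118 such cells of eWAT_DFAT and at 82.9 CPM in 20 of iWAT_DFAT. The endothelial cells of eWAT_DFAT and the Schwann cells of iWAT_SVF had medians of 12508 and 11514 UMIs, against 27934 and 25045 in cells with none. The part of this depth was not tested.

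Levels of the ATF4 pathway genes in such cells differed by type and library. In eWAT_DFAT cells with endothelial markers *Trib3* was at 9.38 CPM and *Atf4* at 189 CPM, above the 3.77 and 129 CPM of cells with none. *Asns* did not differ there within its counting intervals (75.4 and 80.1 CPM). In both SVF libraries *Trib3* and *Atf4* were lower in cells with endothelial markers. *Trib3* was at 19.6 against 37.5 CPM in iWAT_SVF and 19.2 against 31.5 CPM in eWAT_SVF. *Atf4* was at 170 against 206 CPM in iWAT_SVF and 140 against 162 CPM in eWAT_SVF. In iWAT_SVF cells with Schwann cell markers *Chac1* was at 24.5 against 17.9 CPM in cells with none, with intervals that just overlapped. *Asns* was lower in these Schwann marker cells, at 129 against 183 CPM. So were *Trib3*, at 23.6 against 37.5 CPM, and *Ddit3*, at 45.9 against 83.8 CPM. In eWAT_SVF, 559 cells had mesothelial markers, the lining cells of the visceral cavity, and there *Asns* was at 113 CPM, *Ddit3* at 37.1 CPM and *Trib3* at 11.3 CPM. Cells of that library with none of the markers had *Asns* at 244 CPM, *Ddit3* at 65.9 CPM and *Trib3* at 31.5 CPM. *Hspa5* was also lower in the mesothelial marker cells, at 539 against 741 CPM. *Chac1* did not differ within its counting intervals, with 16.7 against 16.8 CPM. Cells with markers of any other type held 5.38% of the *Trib3*, 6.67% of the *Ddit3* and 9.78% of the *Chac1* UMIs of eWAT_SVF, beside 10.96% of all its UMIs.

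**Figure D5:**
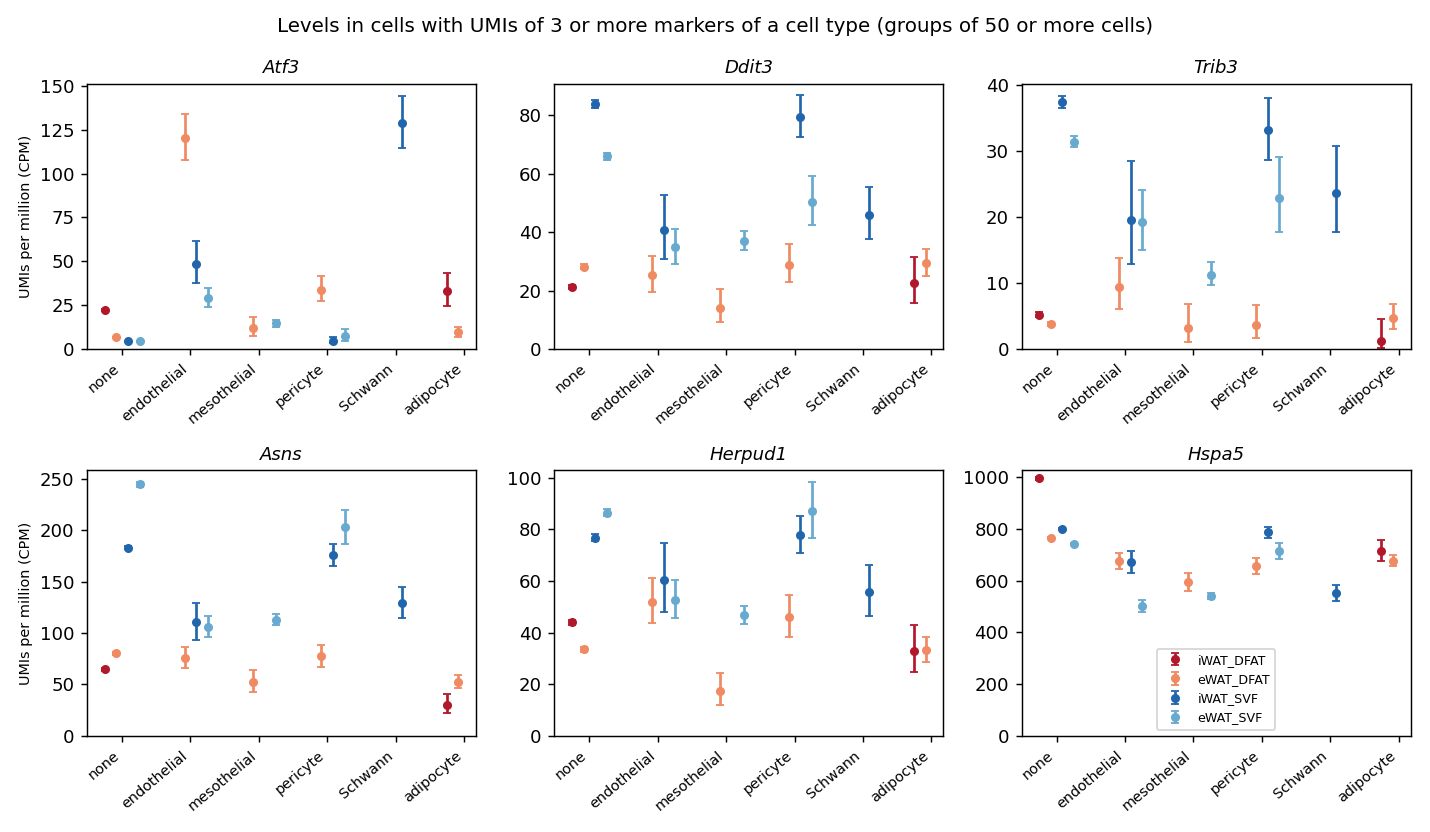
Levels (y axis, UMIs per 1000000 UMIs, from 0) of 6 genes in cells with UMIs of 3 or more markers of a type (x axis). Cells with under 3 markers of each type are called none. Groups of 50 or more cells are shown, with exact 95% Poisson intervals and 1 colour per library. *Atf3* reaches 121 in endothelial marker cells of eWAT_DFAT and 129 in Schwann marker cells of iWAT_SVF, against 6.78 and 4.37 in cells with none, and *Asns* and *Trib3* are lower in mesothelial marker cells of eWAT_SVF (113 and 11.3) than in cells with none (244 and 31.5).

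*Atf3* also went with the immediate early genes, a class switched on within minutes by growth factors or stress. In iWAT_DFAT against iWAT_SVF, 12 of 13 of these genes were higher by 2-fold, with a median log2 ratio of 2.20, and in iWAT_DFAT against eWAT_DFAT 11 of 13, with a median of 1.84, beside 9.91% and 8.29% of all genes. The median between eWAT_DFAT and eWAT_SVF was -0.01. Per cell, the list had a median of 23 UMIs per 5000 in iWAT_DFAT and of 6, 4 and 6 in eWAT_DFAT, iWAT_SVF and eWAT_SVF. The iWAT_DFAT library also had the highest median mitochondrial share, 3.12% of UMIs against 1.95% to 2.25% in the others, and *Gm42418*, a gene that overlaps ribosomal RNA, was at 2706 CPM there, 1243 CPM in eWAT_DFAT, 1029 CPM in iWAT_SVF and 2605 CPM in eWAT_SVF. The part of these genes and measures in the level of *Atf3* was not tested. The 7 heat shock genes had medians of 0.05 and 0.03 between DFAT and SVF cells in the 2 depots.

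Levels were also set out by cell cycle genes. The groups differ in depth, with a median of 26278 UMIs in iWAT_DFAT cells with G2 and M phase genes and of 19697 in cells with neither set, called cells that did not cycle, and cells with markers of other types were kept in each group. Cells with 3 or more S phase genes but not G2 and M phase genes had *Sesn2* at 11.8 CPM in iWAT_DFAT, 7.72 CPM in eWAT_DFAT, 17.7 CPM in iWAT_SVF and 15.3 CPM in eWAT_SVF, against 18.4, 11.7, 25.9 and 17.9 CPM in cells that did not cycle, with intervals that overlapped in eWAT_SVF. In cells with G2 and M phase genes *Sesn2* was at 15.7, 12.8, 22.7 and 18.0 CPM in the same order. *Ddit3* in S phase cells was at 66.9 CPM in iWAT_SVF and 45.9 CPM in eWAT_SVF, against 94.7 and 65.9 CPM in cells that did not cycle, and at 24.8 against 32.9 CPM in eWAT_DFAT. In iWAT_DFAT it did not differ within its counting intervals, with 20.9 against 21.3 CPM. *Atf3* was lower in cells with G2 and M phase genes than in cells that did not cycle in each library, most in eWAT_DFAT with 4.69 against 14.3 CPM. Among cells that did not cycle the log2 ratio of *Atf3* between eWAT_DFAT and eWAT_SVF was 1.18, beside 0.58 over all cells. The part of depth and of other cell types in this difference was not tested.

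Cells with a UMI of the cytokine gene *Il11* were set beside those without. *Atf3* was at 14.2 CPM in eWAT_DFAT cells with an *Il11* UMI and 7.36 CPM in those without, and at 11.2 and 5.44 CPM in eWAT_SVF cells, but lower with an *Il11* UMI in iWAT_SVF cells, at 4.39 and 6.31 CPM. In iWAT_DFAT, with 22.5 and 22.9 CPM, its intervals overlapped. There *Trib3* (7.61 against 5.00 CPM) and *Chac1* (5.51 against 3.56 CPM) were higher with an *Il11* UMI. *Hspa5* (934 against 998 CPM) and *Xbp1* (84.1 against 90.6 CPM) were lower. In iWAT_SVF *Trib3* was lower, at 32.2 against 37.4 CPM, and in eWAT_SVF *Chac1* was higher, at 20.8 against 16.2 CPM. Median depth in iWAT_DFAT was 28120 UMIs with and 21683 without an *Il11* UMI, and its part was not tested.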

How the data were processed

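Unfiltered matrices of UMI counts were deposited by the authors, made with Cell Ranger on mm10, with introns included per the methods. The submitters' notes name Cell Ranger 7.0.0, the headers 7.1.0 for 3 libraries and version 4 for iWAT_SVF. Genes with the most intron bases (highest 20%) had a median log2 ratio of 0.28 in iWAT_DFAT against iWAT_SVF (lowest 20%: -0.06) and of 0.12 in iWAT_SVF against eWAT_SVF (-0.01), beside 0.14 (-0.02) for eWAT_DFAT against eWAT_SVF and 0.25 (-0.03) for iWAT_DFAT against eWAT_DFAT. The part of the version in the results was not tested. The background removal and doublet removal of the methods were not repeated. Barcodes were filtered as stated in the text.

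Counts were summed per library and scaled to 1000000 UMIs (CPM). Levels carry exact Poisson intervals, shares exact Clopper-Pearson intervals and ratios exact conditional binomial intervals, each at 95%. For a gene with 0 UMIs, the floor of 3 counts is 0.0163 CPM in iWAT_DFAT. With 1 library per condition no test was made, and genes past 2-fold at 5 CPM or more were counted. The 10 genes, the other gene lists and the markers were chosen with earlier results of these data known. Named beside the 10 genes are the 2 genes with the largest ratio in each direction per list and comparison, the 3 most alike genes, *Il11*, and marker genes beside a result. *Mars1* was matched by its older symbol. Gene coordinates follow GENCODE M21 (GRCm38), and promoter windows are from RefSeq on GRCm38.p6. Ratio and thinning steps were tested on simulated counts. The tools were scipy 1.17.1, numpy 2.4.6, pandas 2.3.3 and matplotlib 3.10.9, run in Python 3.11.15.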

Additional observations from a re-analysis of the deposited data

Results flagged for a closer look

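For 4 of the 10 genes a ratio had opposite directions in the 2 groups it was set in; each group is 1 library against 1 library, so the differences were not tested and have only a counting interval. *Atf4* was lower in iWAT than in eWAT among DFAT cells (log2 ratio -0.05) and higher among SVF cells (0.37), a difference of -0.42 (DFAT minus SVF). The direction among DFAT cells turned in cells that do not cycle, with 0.059, and with each cell thinned to 5000 UMIs *Atf4* had a UMI in 46.5% of iWAT_DFAT and 45.2% of eWAT_DFAT cells, shares whose intervals overlap. *Ddit3* did the same, with -0.39 and 0.40, a difference of -0.79. *Xbp1* was higher in iWAT among DFAT cells (0.44) and lower among SVF cells (-0.22), a difference of 0.66. The same 4 libraries give the ratio of DFAT to SVF for *Xbp1*, 0.20 in iWAT and -0.46 in eWAT, with the same difference of 0.66. *Herpud1* was higher in iWAT among DFAT cells (0.39) and lower among SVF cells (-0.12), a difference of 0.51.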

How the results depend on the processing

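The 2-fold counts of the 10 genes stayed within 1.5 times in 108 of 112 alternatives, those of the lists in 93 of 112. A limit of 1.5-fold gave 8 list genes higher and 26 lower (in place of 4 and 13) in the inguinal comparison of DFAT with SVF cells, and 4 and 27 (in place of 2 and 12) in the epididymal one. A limit of 3-fold gave 2 and 5 in the inguinal and 1 and 6 in the epididymal comparison, where 2 in place of 5 of the 10 genes were then lower. With cells that do not cycle, 1 in place of 0 of the 10 genes was higher in the epididymal comparison, *Atf3*. Between iWAT and eWAT DFAT cells, the count of the 10 genes higher went from 1 to 0 with the mean of single cells and with 3-fold. List genes higher there went from 4 to 2 without the 6% of cells with the most UMIs, with the mean of single cells and with free RNA subtracted, to 1 with median-of-ratios scaling, to 12 with 1.5-fold and to 0 with 3-fold. List genes lower there went from 1 to 0 with cells that do not cycle and with 3-fold, and to 6 with 1.5-fold. Between SVF depots, list genes lower went from 2 to 1 without cells with markers of another type and to 0 with 3-fold. Median-of-ratios scaling shifts every log2 ratio by -0.08, -0.17, -0.02 and -0.11 (iWAT DFAT to SVF, eWAT DFAT to SVF, DFAT iWAT to eWAT, SVF iWAT to eWAT). The log2 ratios changed sign in 2 of 400 values: *Hspa5* in the epididymal comparison to -0.10 with that scaling, and *Atf4* between DFAT depots to 0.059 with cells that do not cycle. The remaining log2 ratios kept their sign or had been within counting error of 0, and 109 moved by more than their interval. All 80 shares of cells moved with 2500 UMIs or a 2-UMI limit, as those settings alone require. At full depth 7 of 24 ratios of shares for pairs of *Ddit3*, *Trib3* and *Chac1* moved, among them that of *Chac1* with *Trib3* from 1.69 to 2.18 in iWAT_SVF and from 1.57 to 2.08 in eWAT_SVF, while in iWAT_DFAT and eWAT_DFAT it was 6.74 and 5.91. With Spearman in place of Pearson correlations, 1 of the 3 most alike genes was shared for *Chac1* and for *Xbp1*, and 2 or 3 for each other gene. The other causes were not tested. The labels give no replicate numbers, with 1 library per group, and no analysis paired by depot was run. A fit over all 4 libraries with depot as a block was not run. At 5000 UMIs per cell, depth leaves *Trib3* detected in 2.41% of iWAT_DFAT and 1.87% of eWAT_DFAT cells.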
